A study of Mus musculus with 3 samples.

Results

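Wnt5a and Wnt5b are closely related genes for secreted Wnt ligands, and their transcripts were followed in every cell group of 3 single-cell libraries of mouse bone marrow (BM). They are 2 of the 125 panel targets with counts in the files used here, and the rule that selects them is the gene symbol, with no threshold on a measured value. Molecules of each gene were summed for each cell barcode. In the 24821 cells kept, Wnt5a had 661 molecules in 490 cells, Wnt5b had 3903 molecules in 1613 cells, and 147 cells held both.

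All 3 libraries came from wildtype C57/B6 mice, with no transgene and no treatment in any of them, and tissue of several animals was pooled into each library. E18.5 EC is a library of sorted endothelial cells (ECs) of embryonic marrow, with a sort that the methods give as CD31 alone and the series' design as CD31 with endomucin. The E18.5 BM and Adult BM libraries hold what was left of embryonic and of adult marrow once magnetic beads carrying lineage antibodies had taken out mature blood cells. The methods describe further depletion rounds for adult marrow, and it was not stated whether they were applied to this adult library. An exact adult age was not given in the sources used here. Each group is 1 library, so stage, sort, preparation and depth cannot be told apart, no comparison between samples can be tested and no p-value is given.

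Wnt proteins are lipid-modified signals that act over short distances on frizzled (Fzd) receptors of neighbouring cells. Wnt5a and Wnt5b mostly signal without beta-catenin, through Ror-type co-receptors and the planar polarity route that orients cells in growing tissue. In the skeleton, Wnt5a is known for limb outgrowth, and both ligands are known for steering the growth plate, where chondrocytes divide, enlarge and give way to bone.

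The ends of the coding sequences are printed to show how far these paralogs differ near the 3′ side, the side from which transcripts are captured. In the GENCODE M21 annotation of mm10, Wnt5a (ENSMUSG00000021994.15) lies on the plus strand at chr14:28504750-28527448, and its transcript ENSMUST00000063465.11 has 5 exons and 1143 coding bases. Wnt5b (ENSMUSG00000030170.14) lies on the minus strand at chr6:119432531-119544347, and its transcript ENSMUST00000117171.7 has 5 exons and 1080 coding bases. The last 90 coding bases, stop codon included, are given 5′ to 3′ on the strand of the gene, with capitals at the 22 bases that differ between the genes. Both stretches lie in the last exon.
Wnt5a, chr14:28522851-28522940: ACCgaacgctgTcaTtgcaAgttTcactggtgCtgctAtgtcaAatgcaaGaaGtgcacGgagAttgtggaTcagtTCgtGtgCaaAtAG
Wnt5b, chr6:119433398-119433487: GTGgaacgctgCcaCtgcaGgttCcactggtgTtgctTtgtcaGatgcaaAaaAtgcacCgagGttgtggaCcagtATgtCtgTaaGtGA
The aligned coding sequences were identical at 78.6% of bases, and the longest run of identical bases was 29 in the coding sequence and 8 in the last 500 bases of the transcripts. The stretches of the panel's own amplicons were not used here, so whether a read could be given to the wrong paralog was not tested. For the same reason the efficiency of each primer is unknown, and levels are compared between cells for 1 gene at a time, never between Wnt5a and Wnt5b.

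Depth differed widely between cell groups and decides how a value can be read. The libraries held 4043, 12884 and 7948 cell barcodes, of which 4038, 12844 and 7939 were kept, and the median kept cell had 83, 97 and 242 molecules, in the order E18.5 EC, E18.5 BM and Adult BM. Between 38 and 113 barcodes were shared by pairs of libraries, and leaving them out, a choice made after seeing the data, moved no level or ratio of the cell groups beyond its counting interval. Doublets were not called. Values are therefore given on a pair of scales. The level is the number of Wnt5a or Wnt5b molecules per 10000 panel molecules of a cell group, and the other scale is molecules per cell. Bounds are 95% intervals, exact Poisson for levels, exact binomial (Clopper-Pearson) for shares of cells and exact conditional for ratios. They cover counting error only. Those for levels and ratios treat molecules as independent, and they are too narrow where a few cells hold many of the molecules. Cells were grouped by clusters that were built without any Wnt pathway target and are called by their marker genes. Ptprc (CD45) marks blood cells, Pecam1 with Kdr marks ECs, Aspn marks fibroblast-like stroma and Cxcl12 marks reticular stroma. Bglap marks cells of the bone-forming line, Col2a1 marks cartilage and Acta2 marks mural cells. Mmp13 is found in bone-forming cells and in hypertrophic chondrocytes, so the Mmp13 groups are called by that gene alone. Stromal cells are those of the Aspn, Cxcl12, Mmp13 and Bglap groups together. The variance of Wnt5b counts over cells was 1.06 times the mean in Ptprc cells of E18.5 BM. It was 2.95 times the mean in Pecam1 Kdr cells and 6.94 times in Col2a1 cells of Adult BM.

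The markers bore out most labels, with exceptions. All 10 measured endothelial markers were found in the Pecam1 Kdr cells of each library, with summed levels of 3518 to 4787 per 10000. E18.5 EC also held 983 Ptprc cells beside 3030 Pecam1 Kdr cells, although it was sorted for endothelium. The Mmp13 group of E18.5 BM cells combined osteoblast markers at 6348 per 10000 with cartilage markers at 2790 per 10000. Mmp13 itself counts among the osteoblast markers, and the leading genes of the group were Col10a1, Mmp13 and Col2a1. It is therefore not read as purely bone-forming, although it is counted with the stromal cells. It is kept apart from the cartilage of the adult library. The largest Ptprc cluster of E18.5 BM cells had Alpl as its leading gene and more endothelial than haematopoietic markers among its 10 leading targets. Ptprc cells are for this reason not compared between libraries as a class.

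**Figure D1:**
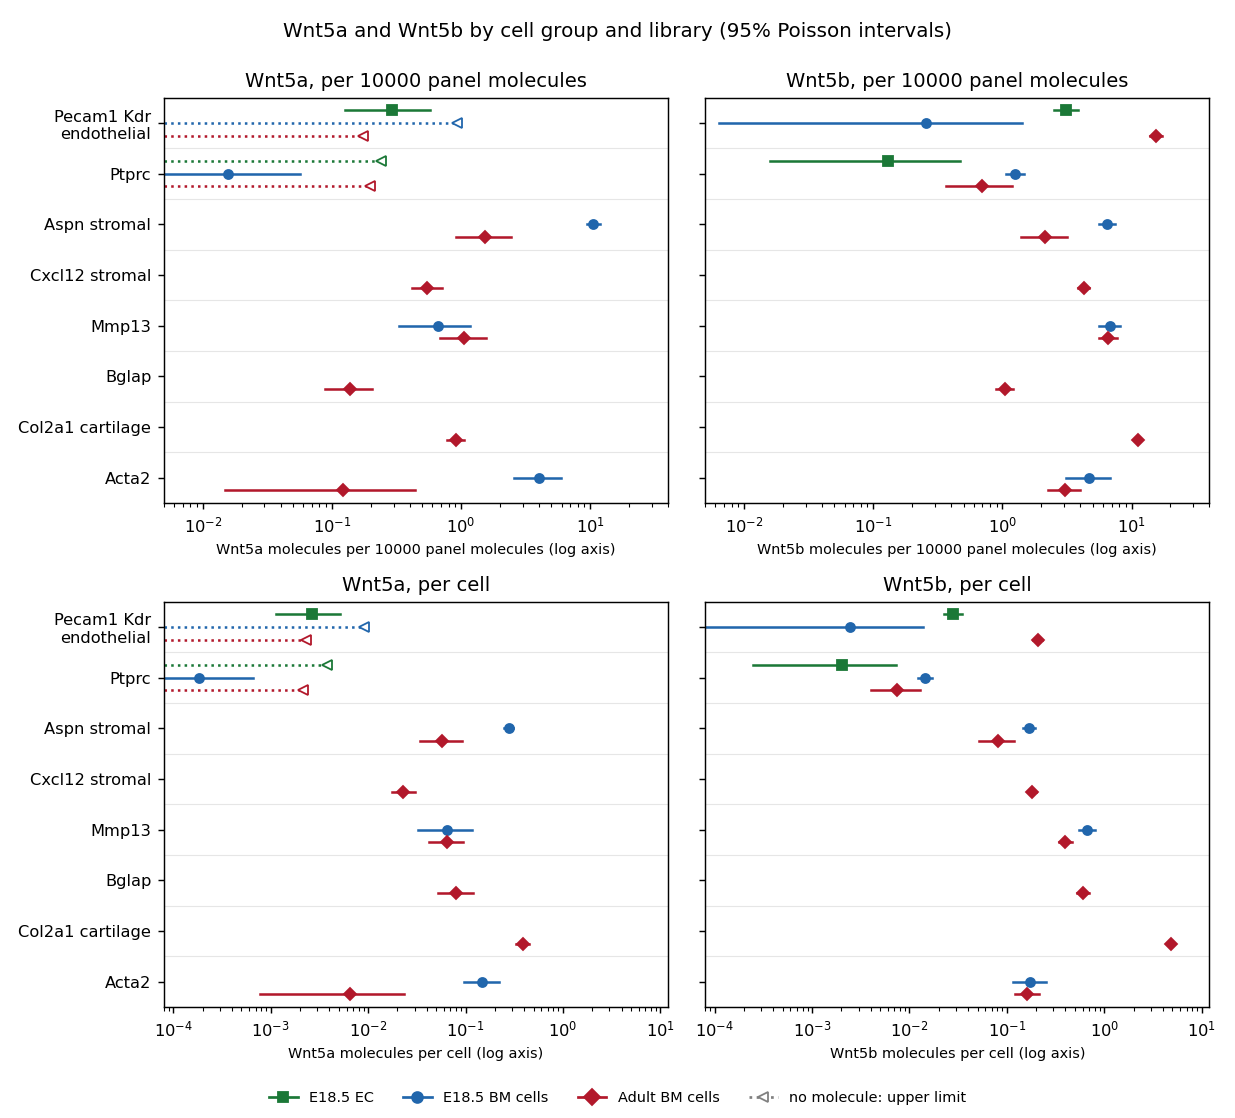
Levels of Wnt5a and Wnt5b per 10000 panel molecules and molecules per cell (log axes) in each cell group with at least 50 cells, coloured by library. Points are sums over all cells of a group, bars are 95% Poisson intervals, and open triangles are upper limits where no molecule was found. On the scale of all panel molecules, Wnt5a is highest in the Aspn cells of E18.5 BM at 10.6 and Wnt5b in the Pecam1 Kdr cells of Adult BM at 15.5. On the scale of molecules per cell, both are highest in the Col2a1 cells of Adult BM, Wnt5a at 0.390 and Wnt5b at 4.80.

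At E18.5, Wnt5a was a transcript of fibroblast-like stroma. Of the 352 Wnt5a molecules of E18.5 BM cells, 315 were in the 1131 Aspn cells, that is 89.5% of the molecules in 8.81% of the cells. Their level was 10.6 per 10000 (9.45 to 11.8), and 19.9% of them held at least 1 molecule. The Acta2 cells of the same library followed at 4.02 (2.58 to 5.98) from 24 molecules, and the Mmp13 cells at 0.660 (0.330 to 1.18) from 11 molecules. The Aspn level was 2.63 times that of the Acta2 cells (1.74 to 4.17) and 16.0 times that of the Mmp13 cells (8.84 to 32.5). Wnt5a was close to absent elsewhere in this library, with 2 molecules in 10929 Ptprc cells and none in 405 Pecam1 Kdr cells, where the level could still be as high as 0.938.

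The stromal cells of E18.5 BM as a whole had 7.03 Wnt5a molecules per 10000 (6.28 to 7.83), against 0.0158 in Ptprc cells. The ratio was 445 (122 to 3692), and its size rests on the 2 molecules of the Ptprc cells. Before the distribution-based error correction of the pipeline, which removes molecules with few reads, the Ptprc cells held 131 Wnt5a molecules, and the ratio was then 11.2. It was 17.0 with raw molecules and 41.1 with finer clusters. Among all targets with enough molecules, 47.6% were higher in the stromal than in the Ptprc cells of this library by the same call, past 2-fold with an interval that leaves out 1. Both Wnt5a and Wnt5b were among them, so a higher level in stroma is shared with many targets of this panel, which includes markers of stromal cells.

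Wnt5a was not even within the Aspn cells of E18.5 BM. When these were clustered again without Wnt targets, the part led by Aspn, Postn and Fbln5, genes of fibrous and elastic matrix, had 89 molecules in 136 cells, a level of 20.4 (16.4 to 25.1) with 40.4% of cells positive. That was 2.29 times the level of the other Aspn cells (1.77 to 2.94). A part led by Bglap2 came next at 15.6 (11.8 to 20.2). The lowest were the largest part, with Cxcl12 among its leading genes, at 7.44 and the part led by Srgn and Ptprc at 5.56. The last of these carries blood genes, and Aspn cells without any Ptprc molecule had a level of 11.3 (10.05 to 12.8), close to that of all Aspn cells. Among Acta2 cells the same kind of gradient was seen, since 16 of the 24 molecules were in the 59 cells led by Fbln5, Lepr and Vcan, at a level of 11.3 and 6.46 times that of the other Acta2 cells (2.61 to 17.4).

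Most positive cells held a single molecule. Of the Aspn cells with Wnt5a, 166 held 1 molecule, 58 held 2 to 4 and 1 held 8, the highest count in any cell. After each cell was thinned to 50 molecules, Wnt5a was found in 5.39% of the Aspn cells (4.13 to 6.88) and in 0.0114% of the Ptprc cells of the same library, against 19.9% and 0.0183% unthinned. The median depths of these groups were 239 and 89 molecules, and the share in Ptprc cells is the background against which the share in Aspn cells is read.

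**Figure D2:**
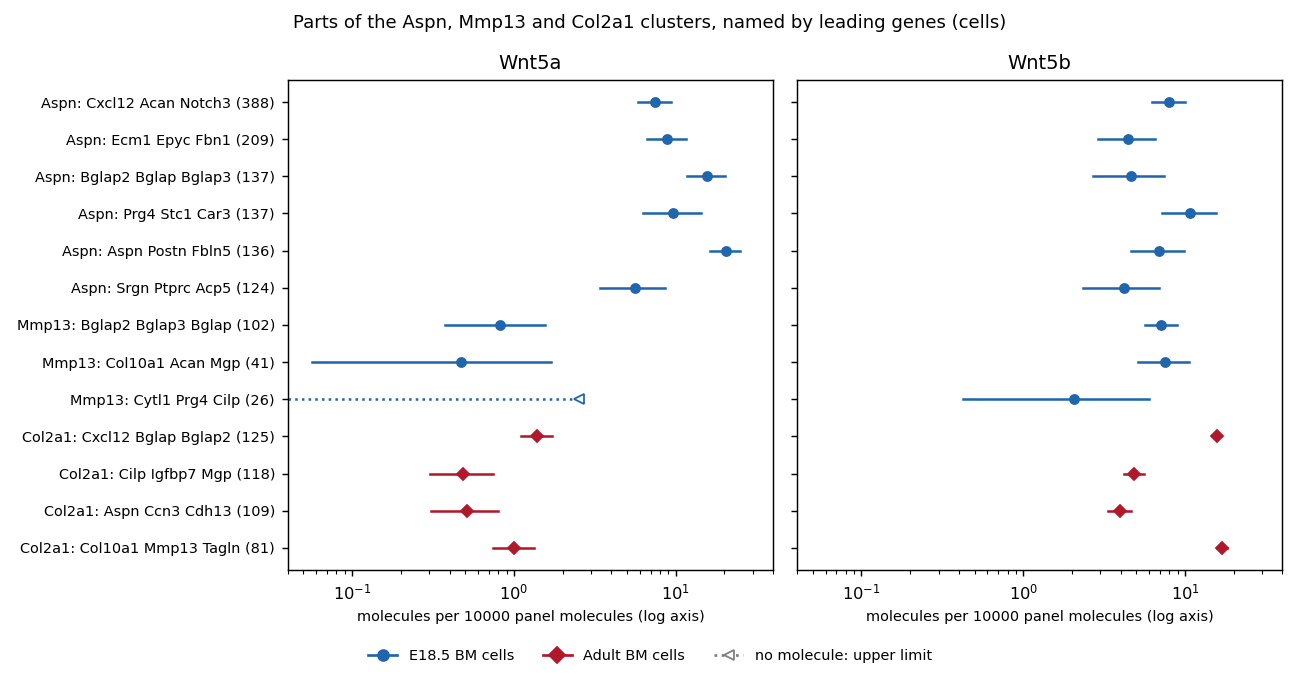
Levels of Wnt5a and Wnt5b per 10000 panel molecules in the parts of 3 skeletal groups, each part named by its leading genes, with 95% Poisson intervals. Wnt5a is highest in the part of the E18.5 Aspn cells led by Aspn, Postn and Fbln5, at 20.4, while Wnt5b in adult Col2a1 cells is 16.9 and 15.7 in the parts led by Col10a1 and by Cxcl12 with Bglap, and 4.84 and 3.97 in the others.

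Wnt5b had a wider range of sources at E18.5. In E18.5 BM cells, 39.0% of its molecules were in Aspn cells and 32.1% in Ptprc cells. Its level was 6.49 per 10000 in Aspn cells (5.61 to 7.47, 193 molecules), 6.78 in Mmp13 cells (5.59 to 8.16, 113 molecules) and 4.69 in Acta2 cells (3.12 to 6.78, 28 molecules). These levels did not differ beyond their intervals, since the ratio of Aspn to Mmp13 cells was 0.957 (0.755 to 1.22) and that of Aspn to Acta2 cells was 1.38 (0.928 to 2.14). Wnt5a and Wnt5b thus differed in order over the same groups, as Wnt5a separated Aspn from Mmp13 cells and Wnt5b did not. On the scale of molecules per cell, the deeper Mmp13 cells were ahead for Wnt5b with 0.669, against 0.171 in Aspn cells, and 1 of them held 12 molecules. Within the Aspn cells, Wnt5b was highest in the part led by Prg4, the lubricin gene of joint surfaces, at 10.8 (7.18 to 15.6), which was 1.78 times the rest (1.15 to 2.66).

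Ptprc cells of E18.5 BM had a low Wnt5b level of 1.25 (1.07 to 1.47), from 159 molecules in 10929 cells. The stromal level of 6.59 (5.88 to 7.38) was 5.26 times higher (4.33 to 6.41), and 16.2 times on the scale of molecules per cell. Of its 306 molecules 113 were in the Mmp13 cells, and Aspn cells alone stood 5.17 times above Ptprc cells (4.17 to 6.42). The low level was not spread evenly over the Ptprc clusters. It was 2.50 in a cluster led by Hlf and Vwf, and 1.94 in a second Hlf cluster, where Hlf is a regulator of haematopoietic stem cells. It was only 1.42, from 8 molecules, in a further cluster led by Hlf and Mecom, and 1.17 in a Vwf-led cluster with Hlf among its leading genes. Both of these lie near the level of all Ptprc cells, so Hlf clusters were not high as a class. It was 2.58 (1.96 to 3.34) in the Alpl-led cluster of 2450 cells, whose leading markers, as given above, are more endothelial than haematopoietic. It was 0.333 in the cluster led by the osteoclast genes Atp6v0d2 and Ctsk, and 0.147 (0.0178 to 0.531) in the cluster led by Stab1, which held 2 molecules in 1671 cells. The second Hlf cluster stood 13.2 times above the last (3.36 to 114). In Ptprc cells with no molecule of Postn, Aspn, Col2a1 or Bglap the Wnt5b level was 1.23 (1.03 to 1.46), close to the level of all Ptprc cells. Without the Alpl-led cluster, an alternative chosen after seeing the data, the stromal level was 6.81 times that of Ptprc cells.

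**Figure D3:**
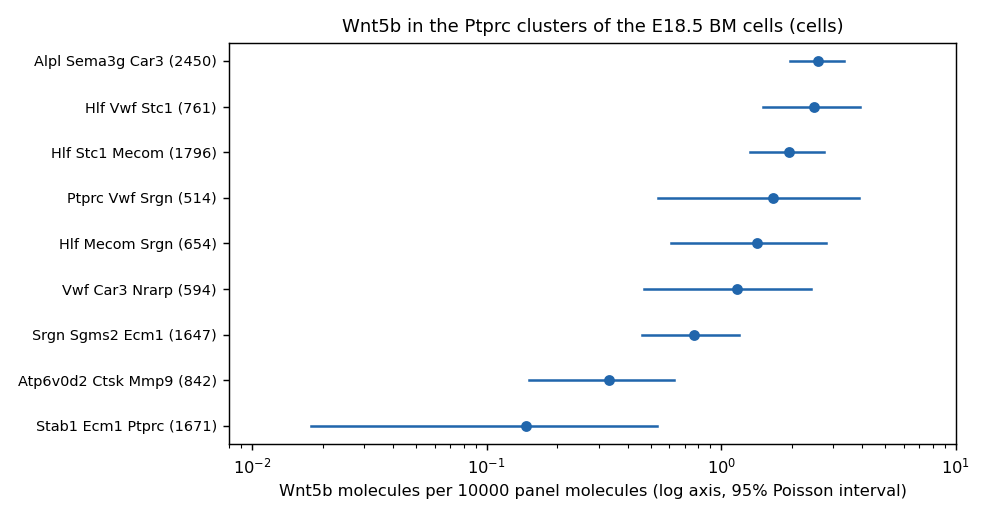
Level of Wnt5b per 10000 panel molecules in the 9 Ptprc clusters of E18.5 BM cells, named by their leading genes, with 95% Poisson intervals. The level runs from 2.58 in the Alpl-led cluster to 0.147 in the cluster led by Stab1.

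Endothelial Wnt5b at E18.5 was modest. Pecam1 Kdr cells of E18.5 EC had 85 molecules in 3030 cells, a level of 3.11 (2.49 to 3.85), while the Ptprc cells of that library had 2 molecules in 983 cells, a level of 0.131. The ratio was 23.7 (6.37 to 199), and it was 4.99 before the distribution-based correction. Without endothelial cells that held Ptprc, Postn or Aspn, the level was 3.03 in 2951 cells. After thinning to 50 molecules, 1.62% of the Pecam1 Kdr cells held Wnt5b (1.14 to 2.23), against 2.51% unthinned, and none of the Ptprc cells did, which allows a share of up to 0.406%. The few ECs of E18.5 BM gave a lower value, 1 molecule in 405 cells and a level of 0.254 (0.00644 to 1.42), so that the sorted library stood 12.2 times above it (2.14 to 489). That ratio rests on 1 molecule, and the sorted and the unsorted ECs were prepared separately.

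Across the endothelial clusters of E18.5 EC, Wnt5b was highest in the cluster led by Vwf, the gene of von Willebrand factor, and Fbn1, at 5.31, and in the cluster led by Apln and Stab1, at 4.10. The difference between them stayed within the interval (ratio 1.29, 0.735 to 2.30). The first stood above the cluster led by Gja4 and Cxcl12, which carries the arterial connexin Gja4, at 2.53 times its level (1.14 to 6.37). Wnt5a had only 8 molecules in the Pecam1 Kdr cells of E18.5 EC, 5 of which were in that Gja4 cluster, at a level of 1.31 from 274 cells. These 5 molecules sat in 3 cells, and 1 of those cells held 3, so the level rests on very few cells.

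In adult marrow, per 10000 of all panel molecules, the Wnt5b level was highest in endothelium, although its order with cartilage turned on another denominator, as given below with the cartilage values. Pecam1 Kdr cells of Adult BM had 330 molecules in 1585 cells, a level of 15.5 (13.8 to 17.2), and 11.2% of them held at least 1 molecule. Ptprc cells of the same library had 13 molecules in 1734 cells, a level of 0.692 (0.368 to 1.18). The endothelial level was 22.4 times higher (12.9 to 42.5) and was 4.47 times higher before the distribution-based correction. By the same call, 41.9% of the targets were higher in adult endothelial than in adult Ptprc cells, and Wnt5b was 1 of them. Wnt5a could not be called, since it had no molecule in either group, which allows up to 0.173 per 10000 in the Pecam1 Kdr cells and 0.196 in the Ptprc cells. Before that correction, 8 and 15 Wnt5a molecules were counted in these groups.

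Adult endothelial Wnt5b was concentrated in the cluster led by Stab1, Kdr and Apln. Stab1 encodes a scavenger receptor typical of sinusoids, the wide thin-walled vessels of marrow. The cluster held 284 of the 330 molecules in 908 cells, a level of 26.5 (23.5 to 29.8), higher than in any other cluster of the 3 libraries on this scale, with 17.2% of cells positive. The cluster led by Vwf and Apln had a level of 6.93 (4.11 to 10.9) and the cluster led by Gja4, Sema3g and Mecom had 3.49 (2.32 to 5.05). The Stab1 cluster stood 3.82 times above the first (2.38 to 6.55) and 7.59 times above the second (5.14 to 11.6). Thinned to 50 molecules, Wnt5b was found in 10.9% of the Stab1 cluster (8.87 to 13.2) and in 1.12% of the Gja4 cluster (0.365 to 2.60).

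The Gja4 cluster itself was split. A part of 168 cells led by Apln, Stab1 and Kdr held 27 of its 28 Wnt5b molecules, a level of 8.85 (5.83 to 12.9). The other 286 cells, led by Mgp, by Stc1 and Ccn3 or by Vwf and Alpl, held 1 molecule. The ratio between these sides was 44.0 (7.25 to 1801). The 28 molecules sat in 14 cells, and the highest of these cells held 7, so the interval is too narrow. The parts of this cluster that were not led by Apln, Stab1 and Kdr were thus almost without Wnt5b. The cluster led by Apln and Cdh13 of E18.5 EC also split, with 9 molecules in the 248 cells of its Stab1 part and 1 molecule in the other 345 cells. Other clusters split the opposite way. In the adult Stab1 cluster the part led by Gja4, Sema3g and Hey1 was highest, with 114 of the 284 molecules and 1.66 times the rest (1.30 to 2.11). In the adult Vwf and Apln cluster 14 of 18 molecules were in a part with Hey1, Gja4 and Sema3g among its leading genes. That part stood at 5.30 times the rest (1.66 to 22.1), and the 18 molecules sat in 7 cells. In the Gja4 and Cxcl12 cluster of E18.5 EC the part led by Mgp held 5 of 8 molecules, at 6.23 times the rest (1.21 to 40.1). Arterial and Stab1 genes thus gave no single order of Wnt5b within clusters. These parts were named after the values of their genes were known, and no test is given for them.

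**Figure D4:**
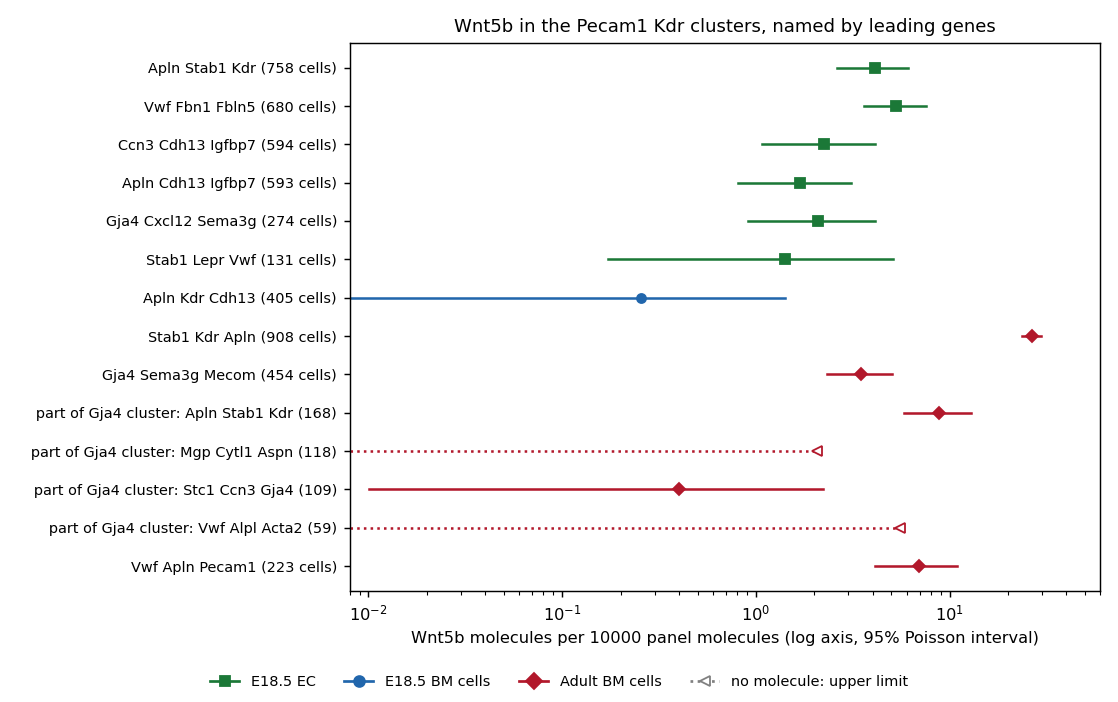
Level of Wnt5b per 10000 panel molecules in the Pecam1 Kdr clusters of each library and in the 4 parts of the adult Gja4 cluster, named by leading genes, with 95% Poisson intervals and upper limits where no molecule was found. The adult Stab1 cluster is highest at 26.5, and in the adult Gja4 cluster the part led by Apln, Stab1 and Kdr has 8.85.

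Transcripts of cartilage and bone were spread through the adult library, and values that bear on this are given here. Col2a1 was found in 33.4% of adult Pecam1 Kdr cells, 31.8% of Ptprc cells and 36.5% of Cxcl12 cells. For every 1000 Col2a1 molecules there were 1.95 Wnt5b molecules in the Col2a1 cells, 8.99 in Ptprc cells, 200 in Cxcl12 cells and 208 in Pecam1 Kdr cells. In the 912 Pecam1 Kdr cells with no molecule of Col2a1 or Bglap, the Wnt5b level was 18.1 (15.7 to 20.7), and in such cells of the Stab1 cluster it was 31.1 (26.7 to 36.0). The endothelial level was as high in the cells where no Col2a1 or Bglap molecule was counted. Whether transcripts of other cells reached these cells too was not tested.

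Between stages, the endothelial Wnt5b level was 4.97 times higher in Adult BM than in E18.5 EC (3.90 to 6.38), and 7.42 times higher on the scale of molecules per cell. It was 2.56 times higher when the 5 most abundant targets of each library were left out of the panel molecules. Among all targets 32.6% were higher in adult than in E18.5 EC endothelium by the same call, and Wnt5b was 1 of them. The libraries differed in sort as well as in stage, and these cannot be told apart.

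Adult cartilage had by far the most Wnt5b molecules per cell. The 433 Col2a1 cells held 2078 molecules, 62.6% of the Wnt5b of Adult BM in 5.45% of its cells. That is 4.80 molecules per cell (4.59 to 5.01), against 0.208 in Pecam1 Kdr cells, a 23.1-fold difference. Per 10000 panel molecules the order turned, at 11.1 in Col2a1 cells (10.7 to 11.6) and 15.5 in Pecam1 Kdr cells, a ratio of 0.721 (0.641 to 0.812). The median depth was 4012 panel molecules in Col2a1 cells and 108 in adult Pecam1 Kdr cells. The order turned again when the 5 most abundant targets of the adult library were left out of the panel molecules, since these made up 59.9% of the molecules of the Col2a1 cells and 9.72% of those of the Pecam1 Kdr cells. The levels were then 27.8 (26.6 to 29.0) in Col2a1 cells and 17.1 (15.3 to 19.1) in Pecam1 Kdr cells, a ratio of 1.62 (1.44 to 1.83). The Stab1 cluster, at 28.4 (25.2 to 32.0), did not differ from the Col2a1 cells beyond the interval on that scale (ratio 0.977, 0.863 to 1.11). For Wnt5a, the Col2a1 cells held 169 molecules, 56.5% of the Wnt5a of Adult BM. Their 0.390 molecules per cell (0.334 to 0.454) lay above the 0.279 (0.249 to 0.311) of E18.5 Aspn cells, which led per 10000 panel molecules. Whether cartilage cells are richer in RNA or were read more deeply cannot be told apart here.

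**Figure D5:**
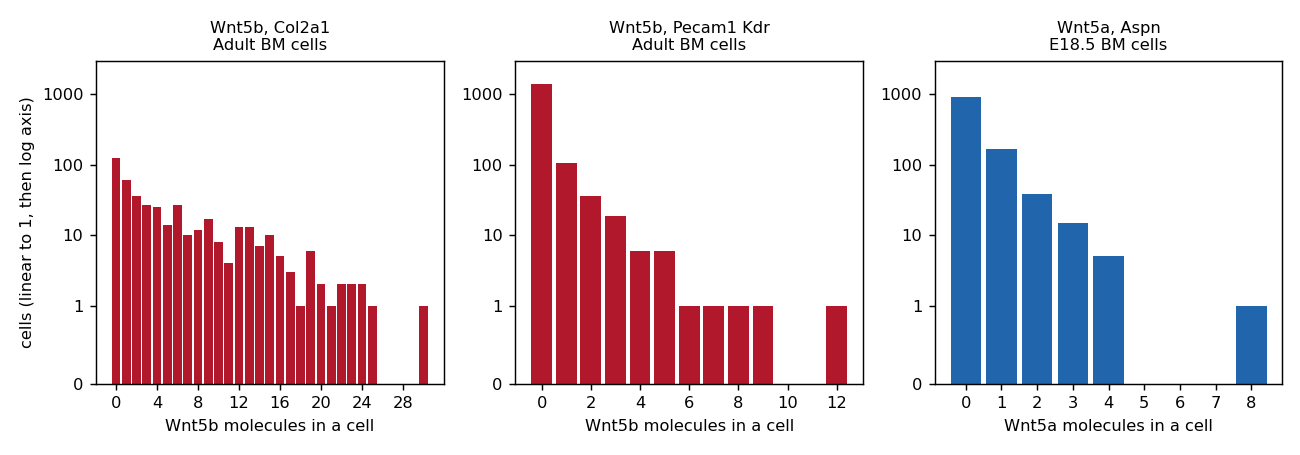
Number of cells by molecules per cell (vertical axis linear up to 1 and logarithmic above) for Wnt5b in adult Col2a1 cells, Wnt5b in adult Pecam1 Kdr cells and Wnt5a in E18.5 Aspn cells. Wnt5b reaches 30 molecules in a Col2a1 cell and 12 in a Pecam1 Kdr cell, and Wnt5a reaches 8 in an Aspn cell.

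In the Col2a1 cells 71.4% held Wnt5b, 161 of them held 5 molecules or more, 81 held 10 or more, and the highest held 30. At 50 molecules per cell the share fell to 3.93% (2.30 to 6.21), against 6.80% (5.58 to 8.20) in adult Pecam1 Kdr cells, 11.2% unthinned, and 0.428% (0.172 to 0.880) in adult Ptprc cells, 0.750% unthinned. The order of these shares follows the level on all panel molecules, and thinning, like that level, counts the Col2a1 molecules of a cell. Stromal shares fell likewise, from 15.5% to 2.39% in Cxcl12 cells and from 35.7% to 0.965% in Bglap cells, whose median depth was 5598 molecules.

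The Col2a1 cells divided into parts with high and low Wnt5b. A part of 81 cells led by Col10a1 and Mmp13, genes of hypertrophic chondrocytes, had a level of 16.9 (15.8 to 18.1), 9.98 molecules per cell and 93.8% of cells positive. A part of 125 cells led by Cxcl12, Bglap and Bglap2 had 15.7 (14.7 to 16.7) and 7.30 molecules per cell. The part led by Cilp, a gene of cartilage matrix, had 4.84, and the part led by Aspn and Ccn3 had 3.97. The first pair stood 1.85 (1.69 to 2.02) and 1.73 times (1.58 to 1.88) above the rest of the Col2a1 cells, and the second pair at 0.371 and 0.307 times. Wnt5a followed in part, at 1.01 in the Col10a1 part and 1.39 in the Cxcl12 and Bglap part, against 0.486 and 0.510 in the others.

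Against all adult stromal cells together, the Wnt5b level of the Col2a1 cells was 4.39 times higher (4.05 to 4.77) and that of Wnt5a 2.32 times higher (1.83 to 2.95). By the same call 24.1% of the targets were higher in cartilage, and both Wnt5a and Wnt5b were among them. The Wnt5a ratio did not hold under every alternative. Without cells holding at least 2 molecules of another group's marker, its ratio turned to 0.888 (0.560 to 1.37), from 29 molecules in cartilage and 81 in stroma, and that of Wnt5b dropped to 1.57. Leaving the 5 most abundant targets out of the panel molecules gave 1.50 for Wnt5a and 2.85 for Wnt5b. Bglap cells, 311 of the 3456 stromal cells, held 1816340 of the 3199277 stromal panel molecules and had the lowest stromal levels of both genes. Group by group, cartilage Wnt5b stood 1.69 times above Mmp13 and 2.61 times above Cxcl12 cells, both beyond the interval. Cartilage Wnt5a stood 1.65 times above Cxcl12 cells (1.21 to 2.28) but did not differ from Mmp13 cells beyond the interval (0.858, 0.566 to 1.35). Its level, 0.907, lay below the 1.54 of Aspn cells, a pair not tested.

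Adult stroma carried Wnt5b at lower levels and little Wnt5a. Wnt5b was 6.58 per 10000 in Mmp13 cells (5.61 to 7.68), 4.27 in Cxcl12 cells (3.88 to 4.69), 2.14 in Aspn cells (1.39 to 3.16) and 1.04 in Bglap cells (0.897 to 1.20). The Mmp13 level was 1.54 times that of Cxcl12 cells (1.28 to 1.85), and the Aspn level was 0.501 times that of Cxcl12 cells (0.321 to 0.750). Cxcl12 is the chemokine that holds blood stem cells in marrow, and Lepr is the leptin receptor of reticular cells. Of the Cxcl12 clusters, the one led by Cxcl12 had 5.68 and the one led by Lepr had 3.58, a ratio of 1.59 (1.31 to 1.92). Their first leading genes were the same in another order. Cxcl12, at 6327 per 10000, and Lepr, at 94.1, were both highest in the Cxcl12-led cluster, so these names do not set a Cxcl12 type against a Lepr type. In molecules per cell the Bglap cells were ahead of the Cxcl12 cells, at 0.608 against 0.180.

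Wnt5a in adult stroma had another order. It was 1.54 in Aspn cells (0.914 to 2.44), 1.06 in Mmp13 cells (0.690 to 1.55), 0.549 in Cxcl12 cells (0.415 to 0.713) and 0.138 in Bglap cells (0.0891 to 0.203). The Aspn level was 2.81 times that of Cxcl12 cells (1.55 to 4.85) and did not differ from that of Mmp13 cells beyond the interval, at 1.46 times (0.754 to 2.77). Adult Aspn cells were thus high in Wnt5a and low in Wnt5b among the stroma, as far as 18 and 25 molecules tell.

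All adult stromal cells together had a Wnt5b level of 2.54 (2.37 to 2.72), 3.67 times that of adult Ptprc cells (2.13 to 6.92). By the same call 41% of the targets were higher in adult stromal than in adult Ptprc cells, and Wnt5b was 1 of them. The ratio moved widely with the processing, to 1.30 before the distribution-based correction, 13.1 with the 5 most abundant targets left out of the panel molecules, 7.15 without cells holding at least 2 molecules of another group's marker, and 31.3 in molecules per cell. The Wnt5a level of adult stroma was 0.391 (0.325 to 0.466), at least 2.45 times that of Ptprc cells, which had no molecule, with the bound set at 3 molecules in the group.

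For the Aspn cells the stages could be set side by side in libraries prepared by lineage depletion. Wnt5a had a level of 10.6 per 10000 in E18.5 Aspn cells and 1.54 in those of the adult, a ratio of 6.87 (4.27 to 11.7), and 4.81 in molecules per cell. Wnt5b was 6.49 and 2.14, a ratio of 3.03 (1.99 to 4.80), and 2.12 in molecules per cell. By the same call 36.3% of the targets were higher at E18.5 than in adult Aspn cells, and both members were among them. Leaving the 5 most abundant targets out of the panel molecules raised the ratios to 12.7 and 5.58, and gating single cells on Aspn gave 12.7 for Wnt5a and 1.72 for Wnt5b. Before the distribution-based correction the Wnt5b ratio was 1.90. The fibroblast markers of these groups also differed, with summed levels of 6559 and 2087 per 10000, and their part in the result was not tested. In the Acta2 cells the Wnt5a level was 4.02 in the embryonic and 0.122 in the adult library, a ratio of 33.0 (8.19 to 288) that rests on 2 adult molecules, while Wnt5b, at 4.69 and 3.05, did not differ beyond the interval (1.54, 0.933 to 2.49). Adult Acta2 cells held Pecam1 in 64.1% of cells.

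Of 36 clusters with at least 50 cells, 10 held more than 3 Wnt5a molecules, and the rest are left out of the order that follows. It was led by the E18.5 Aspn cells at 10.6 and the E18.5 Acta2 cells at 4.02, which differed from each other beyond the interval. Below them, from adult Aspn cells at 1.54 down to the Cxcl12-led adult cluster at 0.473, no cluster of these 10 differed from its next neighbour beyond the interval, and the Bglap cells came last at 0.138, below the Cxcl12-led cluster by more than the interval. For Wnt5b 28 clusters held more than 3 molecules, and the adult Stab1 cluster at 26.5 and the adult Col2a1 cells at 11.1 stood apart at the top. From the adult Vwf and Apln cluster at 6.93 down to the adult Acta2 cells at 3.05, a run that held stromal, mural and endothelial clusters of all 3 libraries, no neighbours differed beyond their interval. Nor did any compared neighbours from the Alpl-led E18.5 cluster at 2.58 down to an adult cluster led by Prg4 at 0.215, a stretch that held Ptprc clusters. The steps from 3.05 to 2.58 and from 2.10 to 1.94 were not compared, so no break is read at 3.05.

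Cells that held both ligands were few. E18.5 EC had 1, E18.5 BM had 33 and Adult BM had 113, of which 89 were Col2a1 cells. In E18.5 Aspn cells, Wnt5b was found in 12% of cells with Wnt5a (8.06 to 17.0) and in 12.7% of cells without it (10.6 to 15.04). The intervals of these shares overlap. In adult Col2a1 cells the shares were 81.7% (73.1 to 88.4) and 67.9% (62.5 to 73.0), with median depths of 5048 and 3678 molecules, so that cells with Wnt5a were also the deeper cells. Before the distribution-based correction, 62 cells of E18.5 BM and 311 of Adult BM held both.

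Of 33 genes listed for the Wnt5 route, 14 were among the targets with counts. They were the ligands Wnt4 and Wnt11, the receptors Fzd2 to Fzd9, the co-receptor Lrp5, the adaptors Dvl1 and Dvl2, and Wls. Wls carries Wnt proteins to the cell surface. The listed genes Ror1, Ror2, Ryk, Ptk7, Vangl1, Vangl2, Celsr1, Prickle1 and Daam1 had no counts. The values below therefore describe shared Wnt pathway genes, not the Ror and planar polarity part of the route. In E18.5 against adult Aspn cells 6 of 13 genes compared were higher, none were lower, and the median ratio was 1.77. Of all targets compared there, 36.3% were higher and 27.5% lower, with a median ratio of 1.16. Fzd2, a receptor of mesenchymal cells, was 1 of the 6, with a level of 18.53 per 10000 at E18.5 against 4.97 in adult cells, 3.73 times higher (2.84 to 4.97). Like Wnt5a, Fzd2 was also far higher in E18.5 stroma than in the Ptprc cells of that library, at 155 times (83.6 to 325).

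In adult against E18.5 EC endothelium none of 11 listed genes compared were higher and 3 were lower, with a median ratio of 0.764. Of all targets compared there, 32.6% were higher and 25.8% lower, with a median ratio of 0.969. The lower ones were Fzd3, Fzd5 and Fzd9. Fzd6 and Fzd4 had endothelial levels of 85.1 and 13.2 per 10000 in Adult BM and 87.8 and 16.8 in E18.5 EC, and in Adult BM they were 5.86 (5.15 to 6.68) and 13.1 times (8.22 to 22.0) above Ptprc cells. In adult cartilage against stroma 2 of 13 genes were higher, 6 were lower, and the median ratio was 0.547, against 24.1% higher, 57.4% lower and a median of 0.220 over all targets. The higher ones were Wnt11, at 2.95 times, and Fzd9, at 2.66 times. Wnt4 marked another adult source, with 25.7 in Cxcl12 cells and 30.9 in Mmp13 cells, and adult stroma stood 31.9 times above Ptprc cells for it (15.5 to 79.3). Against Ptprc cells, 5 of 13 listed genes were higher and 4 lower in E18.5 stroma, with a median ratio of 1.42, where 47.6% of all targets were higher and 34.0% lower, with a median of 1.65. In adult stroma 2 of 13 were higher and 8 lower, with a median of 0.233, against 41% higher, 43.8% lower and a median of 0.783 over all targets. In adult endothelium 3 of 12 were higher and 6 lower, with a median of 0.548, against 41.9% higher, 30.1% lower and a median of 1.32 over all targets. These shares describe 11 to 13 genes and carry no test.

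The targets most like Wnt5a over 36 clusters were Mgp, the matrix Gla protein of cartilage and vessels, with a Spearman correlation of 0.62, and Sox9, the chondrocyte regulator, and the fibril-associated collagen gene Col12a1, both with 0.58. Those most like Wnt5b were Wnt4 with 0.64, Col12a1 with 0.58 and Mgp with 0.57, out of 111 targets compared. These correlations describe clusters that share 3 libraries and differ in depth, and they carry no test.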

How the data were processed

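Expression was measured in 3 libraries by targeted single-cell RNA-seq in microwells with unique molecular identifiers, and the groups are the sample labels. The BD Targeted Rhapsody Analysis Pipeline 1.8 is named in the file headers, although the methods name an earlier release, and the labels give mm10. The deposited files hold counts of reads and molecules per barcode and amplicon, either raw or corrected for base substitutions (RSEC) and then by the distribution of reads over molecules (DBEC), with no normalization by the authors. DBEC molecules were 15.4, 33.6 and 28.2% of the raw molecules of Wnt5a in E18.5 EC, E18.5 BM and Adult BM, and 26.2, 42.9 and 34.2% of those of Wnt5b. Wrongly removed or kept molecules therefore bear most on low levels. The totals were 432987, 1837897 and 6304495 molecules, and the precision of each value is set by its own molecule count.

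DBEC molecules were summed per barcode and target. A cell was kept if it had 20 molecules and 5 targets or more. Each library was clustered alone, without Wnt pathway and cell cycle targets, on 11 principal components with scikit-learn 1.9.0, 20 nearest neighbours and the Leiden method of python-igraph 0.11.9 at resolution 0.5, which gave 40 clusters. Clusters were put in groups in a fixed order. Ptprc in over 50% of cells came first, then Pecam1 in over 90% with Kdr in over 50% (ungrouped where Lepr also passed 50%), then Acta2 and Aspn in over 50%, then levels of Col2a1, Mmp13, Bglap or Cxcl12 above 1000 per 10000 (Cxcl12 with Pecam1 in at most 50%). The rest, 49 cells of E18.5 BM and 422 of Adult BM, stayed ungrouped. Parts were found by clustering a cluster again. Clusters and parts are named by some of their leading genes, and 2 targets among these are not reported here. Each ratio compares levels and was called past 2-fold with an interval leaving out 1, for targets with at least 20 molecules. Shares were taken unthinned and after thinning to 50 molecules with a fixed seed. Calculations used scipy 1.17.1, pandas 2.3.3 and numpy 2.4.6 in Python 3.11.15, plots matplotlib 3.10.9, and coding sequences Biopython 1.88 with GENCODE M21. The calls of ratios and the Poisson intervals were tested on simulated counts drawn as Poisson. That check cannot show how the intervals do where the variance over cells exceeds the mean, as it did for Wnt5b in adult Pecam1 Kdr and Col2a1 cells.

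The genes named are Wnt5a and Wnt5b, the 3 targets most correlated with each over clusters of at least 50 cells (targets of at least 50 molecules), and a list of 33 genes of the Wnt5 route. These genes, the marker lists and the comparisons were chosen with earlier results of these data known, and the rule for groups was set after the clusters were seen. Alternatives were RSEC or raw molecules, other cell filters, another resolution, number of components and clustering targets, gating of single cells, removal of cells with markers of another group, another denominator and thinning to 100 molecules. Chosen after seeing the data were leaving out the Alpl-led Ptprc cluster, the Mmp13 clusters or the shared barcodes, and using molecules per cell.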

Additional observations from a re-analysis of the deposited data

Results flagged for a closer look

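Wnt5b was also found in adult clusters that joined no cell group, above the limit that a count of 0 allows. A cluster of 281 cells led by Prg4 and Col22a1 held 12 molecules, a level of 0.215 per 10000 at a median depth of 1569 molecules. A cluster of 42 cells led by Cilp and Cytl1 held 10 molecules, a level of 1.20. A cluster of 34 cells led by Stab1, Kdr and Lepr, which mixes endothelial and reticular genes, held 13 molecules, a level of 6.91, and 3 molecules of Wnt5a. These clusters enter none of the comparisons between cell groups, although the first is among the clusters of the order of levels and of the correlations, and whether they are doublets was not tested.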

How the results depend on the processing

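Of the ratios recomputed under 14 alternatives each, 109 moved by less than their counting interval, 30 moved further and 1 turned. With RSEC and with raw molecules, stromal over Ptprc became 11.2 and 17.0 for Wnt5a and 4.07 and 3.79 for Wnt5b at E18.5, and 1.30 and 1.32 for Wnt5b in the adult. Endothelial over Ptprc for Wnt5b became 4.47 and 5.94 in the adult and 4.99 (RSEC) in E18.5 EC, cartilage over stromal for Wnt5b 3.21 and 3.39, Aspn E18.5 over adult for Wnt5b 1.90 (RSEC), and cells with both 62 at E18.5 and 311 in the adult. Without cells with another group's marker, cartilage over stromal was 0.888 for Wnt5a and 1.57 for Wnt5b, and adult stromal over Ptprc 7.15 for Wnt5b. With the other denominator, cartilage over stromal was 1.50 for Wnt5a and 2.85 for Wnt5b, adult stromal over Ptprc 13.1, endothelial adult over E18.5 EC 2.56, and Aspn E18.5 over adult 12.7 for Wnt5a and 5.58 for Wnt5b. Gating gave 12.7 and 1.72 for the last, and resolution 1.0 gave 41.1 for Wnt5a in stromal over Ptprc at E18.5. Per cell, the Wnt5b ratios were 16.2 and 31.3 for stromal over Ptprc, 10.8 (Wnt5a) and 20.4 for cartilage over stromal and 7.42 for endothelium. Leaving out the Alpl-led cluster gave 6.81, and leaving out Mmp13 clusters gave 5.06 for cartilage. The cause of these shifts was not tested. Levels at or near 0 are limited by depth. No paired analysis was possible because each group is 1 library.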
